A study of Caenorhabditis elegans with 2 samples.

Results

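Of the 4904 MEP-1 peaks that the authors kept after combining their replicates, 1090 lay in one-strand promoters of the central autosomes of Caenorhabditis elegans, and these are described here. A peak was taken when its summit, the position of highest signal, lay within the middle 50% of chromosome I, II, III, IV or V. The summit also had to lie from 1000 bp upstream to 200 bp downstream of where an annotated protein-coding transcript begins (its 5' end), with the genes of all such windows on 1 strand only. The rule used position alone and not signal. Peaks that met the same window rule in the outer parts of the autosomes (571, called arm peaks) and autosomal peaks whose summit lay in windows of both strands (764) are the comparisons.

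The data come from chromatin immunoprecipitation with sequencing of MEP-1 fused to eGFP, a green fluorescent protein. The group is whole L1 larvae, the first larval stage, of strain OP102, with genotype unc-119(tm4063) III; wgIs102, in which the integrated transgene wgIs102 targets mep-1 and the unc-119 mutation is the background. Male and female animals were pooled, their age is unknown per the labels, and library fragments had a size range of 150 to 350 in the labels. There were 2 biological replicates of this 1 group, both from the same strain, so no test between groups is possible and no control library was analysed here. Whole animals mix all cell types, so a peak seen in few cells and a weak peak in many cannot be told apart.

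MEP-1 is a zinc finger protein that acts with the Mi-2 helicase LET-418 and the histone deacetylase HDA-1 in the MEC complex, which is known for keeping germline genes silent in somatic cells. It was also found as a partner of the germline factor PIE-1 and of the MOG proteins. Many worm genes lie in tandem on 1 strand, and a subset forms operons, in which 1 promoter serves several genes and trans-splicing separates their messages, mostly with spliced leader SL1 at the first gene and SL2 at later ones. Because trans-splicing removes the start of the transcript, an annotated 5' end often marks the splice site and lies downstream of where transcription starts.

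The sequences around 5 summits among the highest members are shown because they carry the words that recur at these peaks, or rank as high without them. Each is 101 bases long, centred on the summit, read 5' to 3' on the strand of the nearest gene, from the RefSeq assembly of WBcel235 (ce11). Capitals mark the words GACGCA and ACGCAG and CGTCTC and their reverse complements, searched on both strands.
rpl-3, chrIII:3867534-3867634, + strand: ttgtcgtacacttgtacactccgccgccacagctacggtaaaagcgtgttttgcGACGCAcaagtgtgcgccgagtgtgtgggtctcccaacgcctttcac
cdc-48.1, chrII:10563523-10563623, - strand: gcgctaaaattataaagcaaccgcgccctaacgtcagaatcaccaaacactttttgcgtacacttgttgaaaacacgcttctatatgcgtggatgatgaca
sec-61.G, chrV:10897325-10897425, - strand: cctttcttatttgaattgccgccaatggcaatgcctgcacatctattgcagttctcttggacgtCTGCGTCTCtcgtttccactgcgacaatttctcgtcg
H41C03.3, chrII:5844764-5844864, + strand: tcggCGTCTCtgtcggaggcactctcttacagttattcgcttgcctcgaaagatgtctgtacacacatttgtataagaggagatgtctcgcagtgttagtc
rpl-35, chrIII:7854638-7854738, + strand: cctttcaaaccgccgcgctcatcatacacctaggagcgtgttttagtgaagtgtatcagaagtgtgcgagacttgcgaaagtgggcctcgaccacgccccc
The sec-61.G summit holds the 3 words joined into 1 run. The rpl-3 summit holds GACGCA, and the cdc-48.1 and rpl-35 summits hold none of the 3.

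Several of the highest members stood at genes of translation and protein handling. Signal is the authors' value per peak and serves only to rank peaks within a list, since its scale differs between lists. Over the members it ran from 45.3 to 832 in the optimal list, with a median of 85.3. The highest, at rpl-3 (WBGene00004414; a large-subunit ribosomal protein gene), spanned chrIII:3867437-3867737, 270 bp upstream of the 5' end. Its signal was 612 in replicate 1 and 219 in replicate 2, where it ranked 2 and 6 of all peaks. The peak at cdc-48.1 (WBGene00007352; an AAA ATPase that unfolds ubiquitinated proteins), at chrII:10563422-10563714, had 563 in replicate 1 and 232 in replicate 2 and ranked 4 in each. Both replicates thus put these peaks at the top of the list.

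Next among protein-making genes was eif-3.C, a subunit of the initiation factor that recruits the small ribosomal subunit, with a signal of 391 in replicate 1 and 161 in replicate 2 and an optimal-list rank of 23. The rpl-35 peak (chrIII:7854540-7854827) had 343 and 147 and ranked 39. The rpl-24.2 peak had 293 and 130 and ranked 60, with its summit inside a gene on the other strand. Both rpl genes are named for proteins of the large ribosomal subunit. Each of the 3 peaks lay upstream of its 5' end, at -242 bp for eif-3.C, -446 bp for rpl-35 and -155 bp for rpl-24.2.

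Protein handling was represented by sec-61.G, the gamma subunit of the channel that passes proteins into the endoplasmic reticulum. Its peak (chrV:10897167-10897545) had 386 in replicate 1 and 146 in replicate 2 and ranked 26. The summit also lay in the window of the next tandem gene, F32D8.13. The cochaperone gene bag-1 ranked 47, the ESCRT gene chmp-7 ranked 50 and the DnaJ chaperone gene dnj-9 ranked 53. The ufmylation gene ufbp-1 ranked 57 with a signal of 304 in replicate 1 and 125 in replicate 2. These peaks were within 100 ranks of the top in both replicates.

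The zinc finger gene ztf-7 ranked 54 and the protein phosphatase gene ppm-1.A ranked 55. On chromosome IV the 2 highest members were at ruvb-2, an AAA ATPase of chromatin remodelling complexes (rank 72), and W03F8.4 (rank 89). In the window before his-37, a histone H4 gene, a peak ranked 66; worm H4 genes are near-identical copies, and how reads that match several were placed is not given in the sources used here. Of the 15 highest members, 14 had summits between protein-coding genes and 1 was inside a gene on the other strand.

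At the middle of the ranking stood vha-16, a proton pump subunit gene, with a signal of 58.6 in replicate 1 and 25.7 in replicate 2. The lowest members were R02D5.24 and fncm-1, at 45.3 each in the optimal list. The rule's bounds had ordinary peaks on either side. Inside the chromosome bound were ttr-15 (signal 72.0) and C34C12.8 (409), and outside it fbxa-24 (69.1) and inx-12 (56.6). At the upstream bound nhr-62 and hint-3 were inside at -994 bp (58.2 and 122), and the peaks nearest unc-76 at -1007 bp and hil-1 at -1010 bp were outside (54 and 79.1). At the downstream bound nhr-136 (191 bp, 52.6) and ZC412.10 (187 bp, 102) were inside, and ZK112.4 (201 bp, 129) and ech-1.2 (202 bp, 139) were outside.

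Nearly all members were seen in each replicate, and the replicates ranked them alike at the top and less so below. The optimal list was made from these replicates, so what follows is a description. A call of any rank overlapped 1076 of the 1090 members in both replicates (at least 1 bp). Among the 4904 highest peaks of replicate 1 were 1015 of the members, and among the 4904 highest of replicate 2 were 911. In both tops were 851 members, or 78.1% (exact Clopper-Pearson 95% interval 75.5 to 80.5), beside 80.4% of arm peaks and 88.7% of both-strand peaks. Intervals cover counting error only, and peaks of 1 library are not replicates. Only 15 members were in neither top.

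The shared share went with the ranking, which is made from the replicates themselves. With the members cut into 4 equal parts by rank it was 99.3%, 97.4%, 83.1% and 32.6% from highest to lowest. Signal ran from 20.5 to 612 in replicate 1 (median 59.4) and from 3.80 to 232 in replicate 2 (median 27.5). Across the 1076 members called in both, Spearman's rho of the 2 signals was 0.774, beside 0.775 for arm peaks and 0.868 for both-strand peaks. This is a description over peaks of the same 2 libraries. The members whose ranks differed most were emb-8 (2949 in replicate 1, 25844 in replicate 2), nhr-136 (3454 and 26257) and egl-9 (4381 and 24383). At all 3 replicate 1 had the higher rank, with signals between 35.9 and 50.03, against 3.85, 3.80 and 4.06 in replicate 2.

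**Figure D1:**
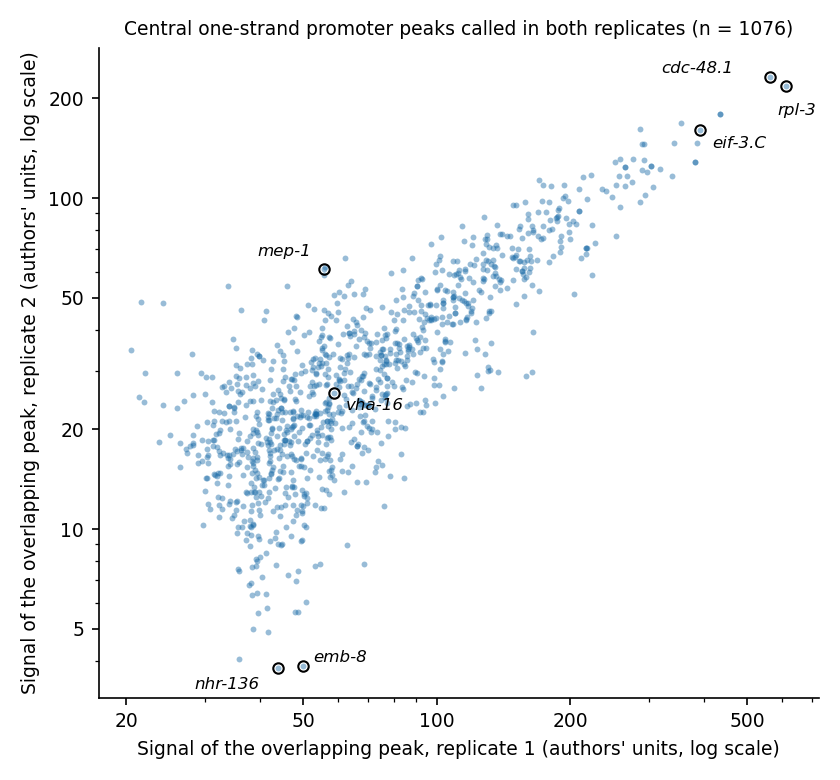
Signal of the peak overlapping each member in replicate 1 (x axis) and replicate 2 (y axis), in the authors' units on log scales, with 1 point for each of the 1076 members called in both. The points narrow towards rpl-3, cdc-48.1 and eif-3.C at the top right, and nhr-136 and emb-8 lie at the bottom with signals of 3.80 and 3.85 in replicate 2.

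Members had signals near those of the list at large and lower than those of both-strand peaks. Their median signal was 85.3, against 90.6 for arm peaks, 119 for both-strand peaks and 82.5 for all optimal peaks. In the highest-signal 25% of the list were 289 members, or 26.5% (23.9 to 29.2), against 28.4% of arm peaks and 44.1% of both-strand peaks. Each replicate's own highest 4904 peaks gave the same order: 27%, 29.1% and 43.6% in replicate 1, and 25.8%, 29.1% and 42.5% in replicate 2. Thus one-strand promoters of centres and arms differed by a few percentage points, and both-strand promoters stood above both, in each replicate.

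Members were spread over all 5 autosomes, with more per base of promoter window on chromosomes I and III. There were 248 on I, 217 on II, 225 on III, 175 on IV and 225 on V. Divided by the bases that fall in one-strand windows of the middle 50%, the members numbered 100.1 per Mb (exact Poisson 95% interval 94.2 to 106), against 61.8 per Mb (56.9 to 67.1) in the arms. Both-strand windows held 346 peaks per Mb, and the central autosomes outside any window held 33.8. Chromosomes I and III had 136 and 132 members per Mb, against 80.7 and 80.9 arm peaks per Mb. Chromosome II had 105, against 62.6 in its arms. Chromosome IV had 74.8 in the centre, against 67.3 in the arms, and these intervals overlap. Chromosome V had 75.9, against 38.1.

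**Figure D2:**
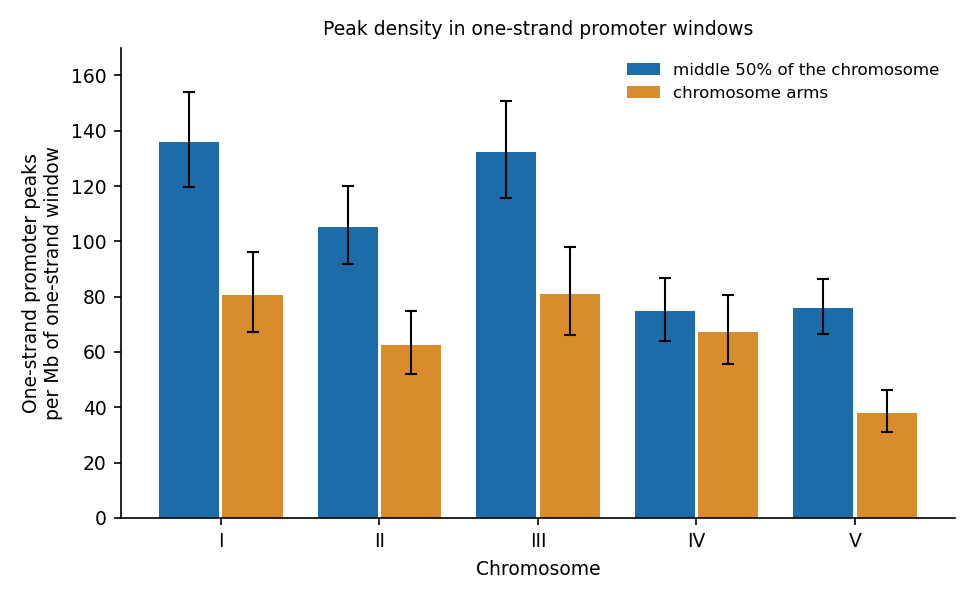
One-strand promoter peaks per Mb of one-strand promoter window in the middle 50% of each autosome and in its arms, with exact Poisson 95% intervals as error bars. The central bars on I and III reach 136 and 132 per Mb, and on IV the intervals of centre and arms overlap.

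Most summits lay upstream of the annotated 5' end and within 500 bp of it. The median position was -235.5 bp (quartiles -447 and -116), against -203 bp for arm peaks and -137.5 bp for both-strand peaks. Upstream of the 5' end were 1006 summits (92.3%). Within 200 bp were 478 (43.9%), against 49.4% of arm peaks and 71.9% of both-strand peaks. Beyond 500 bp upstream were 237 (21.7%), against 20.8% and 2.88%. Position within a window is bounded by the rule. A far position between divergent genes can fall in the windows of both, which removes it from the one-strand class. A both-strand peak was measured to the nearest 5' end on either strand. Part of its shorter distance therefore arises by construction.

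**Figure D3:**
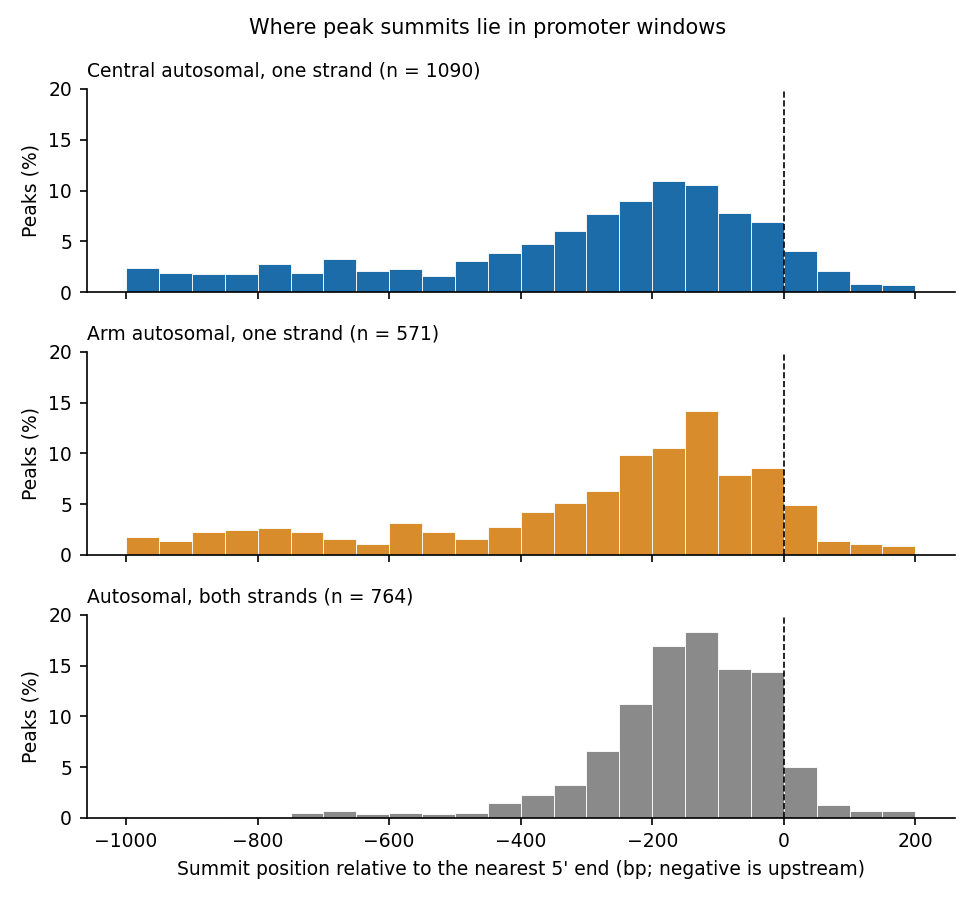
Percent of peaks by summit position relative to the nearest annotated 5' end (x axis, bp, 50 bp bins, negative upstream) for central one-strand, arm one-strand and both-strand autosomal peaks. The central peaks centre on -235.5 bp with a tail of 237 beyond -500 bp. Both-strand peaks, measured to the nearest 5' end on either strand, have a median of -137.5 bp.

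Signal varied with position. The 375 members more than 200 and up to 500 bp upstream had the highest median, 95, and 31.5% of them were in the highest-signal 25% of the list. The 394 up to 200 bp upstream had a median of 87.7 (25.9%), and the 237 more than 500 bp upstream had 77.8 (24.1%). Lowest were the 84 at or after the 5' end, with a median of 66.8 (14.3%). Several of the highest members lay more than 200 bp upstream, as at rpl-3 (-270 bp), eif-3.C (-242 bp) and rpl-35 (-446 bp).

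Summits between protein-coding genes made up 759 of the members (69.6%), with a median signal of 92.4. Inside the nearest gene itself were 251, with a median of 73. Such positions arise from the 200 bp after a 5' end and from 5' ends annotated within a gene. Inside another gene were 80 more, 41 of them on the other strand and 39 on the same strand, with medians of 75.2 and 81.4.

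The members had 997 nearest genes, and 1030 genes held at least 1 member in a window. That is 10.7% of the 9597 protein-coding genes of the central autosomes, and 1976 genes (20.6%) held a promoter peak of any class. Only 36 members lay in windows of 2 or more genes. Several members fell at 78 genes, and 10 genes had 3 or more. The most were 5, at tent-5, a nucleotidyltransferase gene, between -833 and 81 bp with signals from 51.2 to 384. The MTA homologue egl-27, a component of NuRD-type chromatin complexes, had 4, from -994 to -170 bp, with signals from 58.4 to 97.2. The stress-response regulator wdr-23 had 4, between -157 and 74 bp, and the kinase gene mnk-1 had 4. The leucine zipper gene jun-1 and the phosphatase gene vhp-1 had 3 each.

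Bound genes more often headed a close tandem pair than followed one. A tandem neighbour is the nearest protein-coding gene on the same strand, counted when the gap between the genes is 500 bp or less. The nearest gene had such a neighbour downstream for 358 members, or 32.8% (30.1 to 35.7), against 26.8% of arm peaks and 35.2% of both-strand peaks. Of all central autosomal genes 23.9% had one. Upstream, 241 members had one, or 22.1% (19.7 to 24.7), against 23.3% of arm peaks and 24.0% of all central genes. For both-strand peaks the share was 0.785%, which follows from the opposite-strand gene that defines them.

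Seen over genes, the share with a member went with the side and the gap. Of the 1562 central genes with a tandem gene downstream only, 14.7% (13 to 16.6) held a member and 37.1% a promoter peak of any class. Of the 1569 with one upstream only, 10.1% (8.68 to 11.7) held a member and 11.6% a peak of any class. With tandem genes on both sides (730 genes) 13.7% held a member, and with none (5736 genes) 9.43%. These values are read against the 10.7% and 20.6% over all central genes. Each replicate's own highest peaks gave nearly the same: 14.6% and 10.2% (downstream only and upstream only) in replicate 1, and 15.6% and 10.3% in replicate 2. The rule gives these 2 classes unlike room, a mean of 968 and 1324 bases of one-strand window per gene. Per Mb of such window they had 171 and 67.9 members. Both-strand peaks, at 23.2% and 1.53% of these genes, make up much of the contrast for any class. An upstream tandem gene limits such peaks by position.

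Gaps up to 150 bp set the genes apart most. Where the downstream gap was 0 to 150 bp, 17.9% (15.8 to 20.2) of 1224 genes held a member, against 10.4% (8.63 to 12.4) of the 1068 genes with a gap above that and up to 500 bp. Where the upstream gap was 0 to 150 bp, the order was the other way, with 7.17% (5.79 to 8.75) of 1228 genes, against 16% (13.8 to 18.3) of the 1071 genes with a gap above that and up to 500 bp. Among genes with no upstream tandem gene and a downstream gap of 0 to 150 bp, 18.1% held a member and 48.4% a peak of any class. Short gaps of this kind are typical of worm operons. No operon annotation was used here, so tandem pairs and operons were not told apart.

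**Figure D4:**
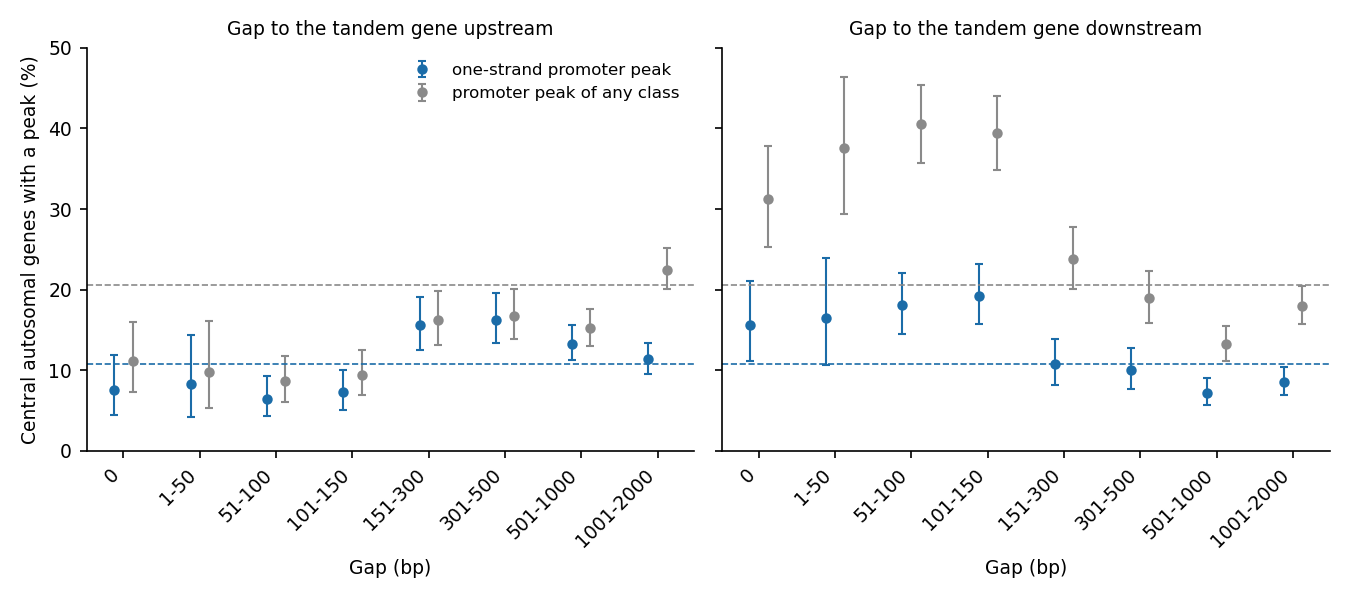
Percent of central autosomal genes with a one-strand promoter peak and with a promoter peak of any class, by gap to the tandem gene upstream (left) and downstream (right), with exact 95% intervals; dashed lines are the shares over all central genes, 10.7% and 20.6%. Shares are low at upstream gaps up to 150 bp and high at downstream gaps up to 150 bp.

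Gaps of 0, which leave no position between genes, are among the shortest upstream gaps, so the share of summits between genes is bounded by the room a gap gives. Of the 66 members with an upstream gap of 0 to 150 bp, 8 (12.1%) were between genes, 23 were inside the upstream gene and 35 inside the gene itself. Of the 78 with a gap above that and up to 300 bp, 61 (78.2%) were between genes. Of the 97 with a gap above 300 and up to 500 bp, 80 (82.5%) were. Median signals of these sets were 77.6, 90.3 and 102.

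Signal was higher at members with a downstream tandem gene. Cut into 4 equal parts by rank, 42.9% of the highest members had one, then 36.4%, 29% and 23.1% of the lowest. The 258 members with a downstream tandem gene only had a median signal of 102, and the 100 with tandem genes on both sides 98.8. The 141 with one upstream only had 84.4, and the 591 with none had 77.4. Of the highest examples, sec-61.G was followed by F32D8.13 after 114 bp and ztf-7 by F46B6.6 after 124 bp. The eif-3.C gene lay between sys-1, 400 bp upstream, and T23D8.3, 110 bp downstream. The dnj-9 gene likewise lay between T23B7.3 at 394 bp and F11G11.5 at 102 bp. By contrast rpl-3 and chmp-7 had no tandem gene within 500 bp on either side.

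Gene lists for cell functions were compared next, chosen with earlier results of these data known. Each count is read beside the 10.7% of all central genes with a member. Of 55 central cytosolic ribosomal protein genes, 21 held a member (38.2%, 25.4 to 52.3) and another 28 held only a both-strand peak, for 49 in all (89.1%, against 20.6% of all central genes). The members had a median signal of 185. Besides rpl-3, rpl-35 and rpl-24.2 above, rpl-10 had a both-strand peak at rank 1363 and rpl-16 had none.

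In mitochondrial respiration, 8 of 30 genes held a member (26.7%, 12.3 to 45.9). The strongest were cyc-1, the cytochrome c1 gene, with a signal of 317 (rank 159), and the cytochrome oxidase subunit gene cox-5B with 298 (rank 190). Of 43 mitochondrial ribosomal protein genes 7 held one (16.3%, 6.81 to 30.7), led by mrpl-23 with 202. That summit lay at -984 bp, inside another gene on the same strand and within 200 bp of a snoRNA gene. Of 27 translation factor genes 6 held one (22.2%, 8.62 to 42.3), and another 14 only a both-strand peak. Among these 14 were clu-1 at rank 558 and eef-1A.1 at rank 33. The synthetase genes kars-1 (201) and gars-1 (48.4) were 2 of 20, near the share of all central genes, and another 6 synthetase genes held only a both-strand peak, so 40% had a peak of any class, against 20.6% of all central genes. The intervals for mitochondrial ribosomal protein and translation factor genes include the 10.7% of all central genes. A peak of any class was at 66.7% of respiration, 41.9% of mitochondrial ribosomal protein and 74.1% of translation factor genes. Median signals of the members were 113 for respiration, 90.3 for mitochondrial ribosomal proteins and 107 for translation factors, beside 85.3 over all members. With 2 synthetase members no median is given.

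Vesicle trafficking genes held members in 13 of 49 cases (26.5%, 14.9 to 41.1), with sec-61.G highest, then the endosomal sorting genes vps-22 (282) and vps-37 (261). The peak counted for vps-22 lay nearer to C27F2.9 and in the windows of both genes. Chaperone genes did so in 8 of 42 (19%, 8.60 to 34.1), with dnj-9 and the prefoldin gene pfd-6 (260) first. The pfd-6 summit also lay in the window of rde-2, an RNA interference gene, so 1 peak counts in both lists. Proteasome genes had 5 of 27 (18.5%, 6.3 to 38.1), led by the lid subunit gene rpn-11 (208). Nucleoporin and transport genes had 6 of 27 (22.2%, 8.62 to 42.3), led by the importin alpha gene ima-2 (257). Splicing factor genes had 4 of 31 (12.9%, 3.63 to 29.8), led by snrp-3 (341). The chaperone, proteasome, nucleoporin and splicing factor intervals include the 10.7% of all central genes. More genes held both-strand peaks only, 13 of the proteasome, 12 of the nucleoporin and 14 of the splicing factor genes. A peak of any class was at 66.7% of proteasome, 66.7% of nucleoporin, 58.1% of splicing factor and 52.4% of chaperone genes. The share over all central genes was 20.6%. Median signals of the members were 161 for vesicle trafficking, 123.3 for chaperone, 67.1 for proteasome, 120 for nucleoporin and 172 for splicing factor genes.

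Chromatin regulators of the synMuv and NuRD classes had the highest share with a member, 8 of 16 (exact interval 24.7 to 75.3%). A peak of any class was at 68.75% of them, below the 89.1% of cytosolic ribosomal protein and 74.1% of translation factor genes. That share was 20.6% over all central genes. The DREAM complex gene lin-9 came first with a signal of 341 (rank 131), then the synMuv genes lin-36 with 257 and lin-13 with 229. Genes of MEP-1 partners and the SUMO pathway, a list that overlaps this one, had 6 of 14 (42.9%, 17.7 to 71.1). Among them dcp-66, a NuRD-type subunit gene, had 117 in replicate 1 and 42.9 in replicate 2. The SUMO conjugating enzyme gene ubc-9 had 63.6 and 38.4. The peak at mep-1 itself ranked 2541 with a signal of 55.9 in replicate 1 and 614 with 61.3 in replicate 2. The strain carries the integrated transgene wgIs102, which targets mep-1, and the part of this transgene in the peak was not tested. The let-418 peak had a signal of 18.8 and rank 3916 in replicate 2 and no overlapping call in replicate 1. The histone-binding protein gene lin-53 had a both-strand peak at rank 101, and hda-1, mog-1 and mog-5 had no promoter peak in the optimal list. Median signals of the members were 133 for the chromatin regulators and 76.9 for the partner list.

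Cell cycle and replication genes held members in 9 of 39 cases (23.1%, 11.1 to 39.3), led by zyg-11 (158), the ribonucleotide reductase gene rnr-1 (137) and mcm-5 (108). Core histone and linker genes had 3 of 56 (5.36%, 1.12 to 14.9), at his-37, hil-7 and hcp-3, the centromeric histone. Another 11 histone genes held only a both-strand peak, so 25% had a peak of any class, against 20.6% of all central genes. Germline RNA and P granule genes had 3 of 27 (11.1%), at cgh-1 (246), gld-2 (63.8) and mes-3 (52.7), near the share of all central genes. Heterochronic and small RNA pathway genes had 3 of 21 (14.3%, 3.05 to 36.3), at rde-2, the Microprocessor gene pash-1 (206) and the developmental timing gene lin-28 (189). Another 5 of them held only a both-strand peak. A peak of any class was at 61.5% of cell cycle, 22.2% of germline and 38.1% of heterochronic and small RNA pathway genes. RNA polymerase II and Mediator genes had 2 of 32 (6.25%, 0.766 to 20.8), at mdt-22 and rpb-6, and another 10 had only a both-strand peak. Thus 37.5% of them had a peak of any class, against 20.6% of all central genes. The median signal was 72.2 for cell cycle members, below the 85.3 of all members. The other medians rest on 2 or 3 members each and allow no such comparison. They were 63.8 for germline, 206 for heterochronic and small RNA pathway, 151 for polymerase and Mediator and 209.6 for histone members.

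Genes of differentiated tissues were mixed. Muscle genes held members in 4 of 17 cases (23.5%, 6.81 to 49.9), led by the attachment gene unc-112 (229) and the actin genes act-2 (132) and act-3 (56.6), which are near-identical copies, so reads may be split between them. Neuronal genes had 3 of 30, at snb-1 (166), rab-3 (76.4) and unc-104 (46.9). Nuclear hormone receptor genes had 15 of 96 (15.6%, 9.02 to 24.5), led by nhr-34 (194) and nhr-49 (167). Homeobox genes had 5 of 42 (11.9%), led by ceh-20 (195), with the Hox gene lin-39 at 76.2. A peak of any class was at 13.3% of neuronal, 18.75% of receptor and 14.3% of homeobox genes, all below the 20.6% of all central genes. For muscle genes that share was 29.4%. Median signals were 94.1 for muscle, 76.4 for neuronal, 68.2 for receptor and 76.2 for homeobox members.

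The chemoreceptor, collagen, neuropeptide, lectin and F-box families held few members. Chemoreceptor genes had 1 of 486 (0.206%, 0.00521 to 1.14), at sre-23, where the summit lay within 200 bp of a snoRNA gene. Cuticle collagen genes had 4 of 98 (4.08%), with col-147 highest at 69.3. Neuropeptide genes had 1 of 59 (flp-23, 55.9), within 200 bp of a tRNA gene. C-type lectin genes had 1 of 81 (clec-140, 101). F-box genes had 0 of 38, which allows up to 9.25% by the exact interval. The values in these lists stayed under the 10.7% of all central genes, also for peaks of any class against 20.6%, with 10.5% for F-box and 10.2% for collagen genes the highest.

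**Figure D5:**
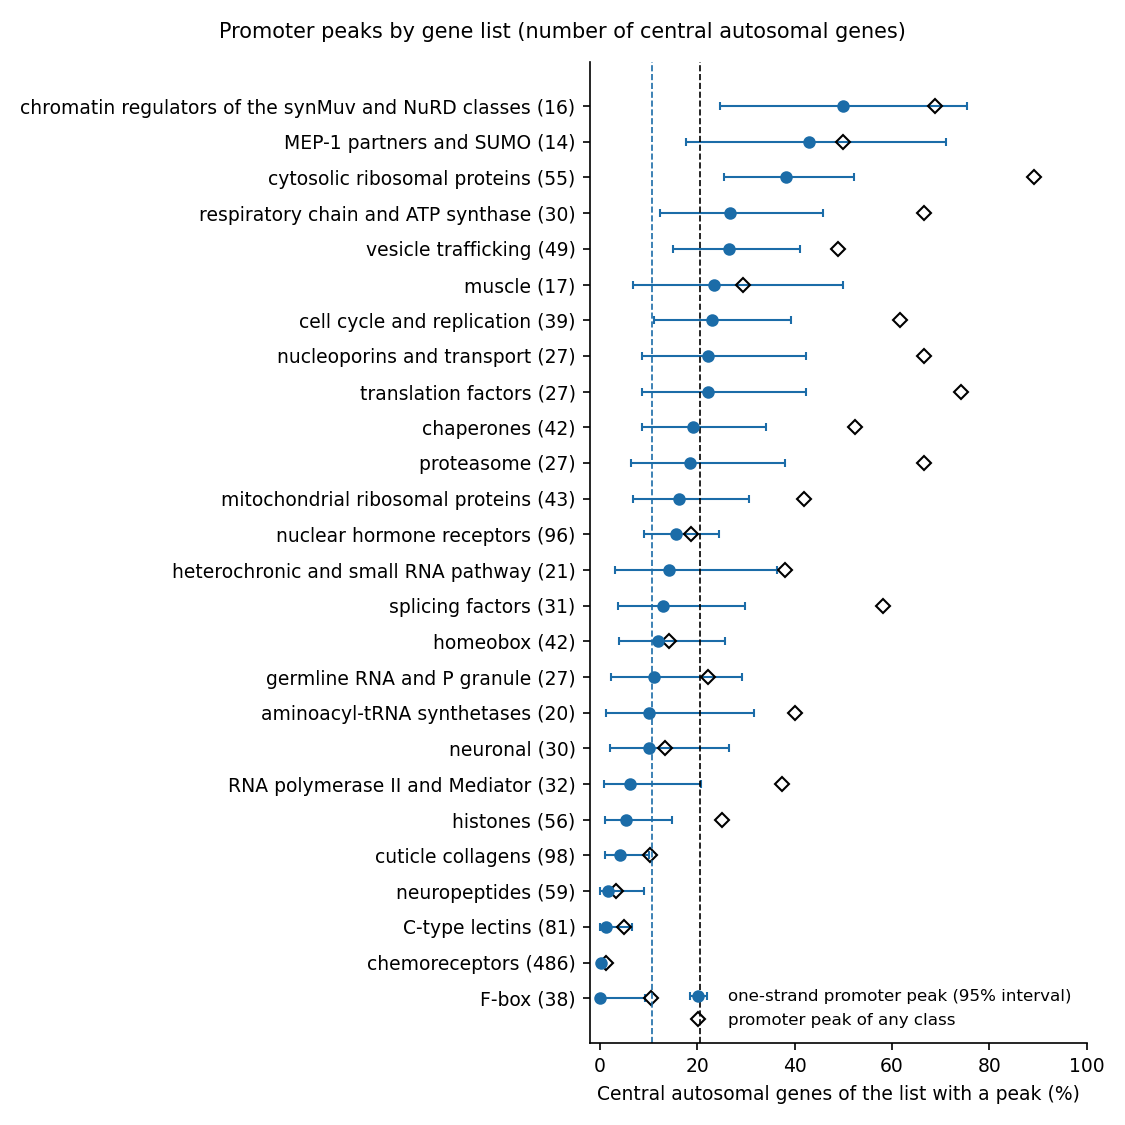
Percent of the central autosomal genes of each list with a one-strand promoter peak (points, exact 95% intervals) and with a promoter peak of any class (diamonds), with list sizes in brackets. Dashed lines mark 10.7% and 20.6% over all central genes. For one-strand peaks, chromatin regulators (8 of 16), MEP-1 partners and SUMO genes (42.9%) and cytosolic ribosomal proteins (38.2%) stand highest. Chemoreceptors (0.206%) and F-box genes (0) stand lowest. For peaks of any class, cytosolic ribosomal proteins stand highest (89.1%).

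Some members stood at small RNA genes that happen to lie in a promoter window. Within 200 bp of a tRNA, snoRNA or snRNA gene were 47 members (4.31%), against 3.33% of arm peaks, 1.44% of both-strand peaks and 6.46% of all optimal peaks. They were 16 at tRNA genes, with signals from 45.6 to 103.6, 22 at snoRNA genes, from 46.1 to 329, and 9 at snRNA genes. Of the snRNA set, 7 were more than 500 bp upstream of the nearest protein-coding gene. For these peaks the protein-coding gene and the small RNA gene cannot be told apart as the one that is bound.

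The highest of them were at genes for spliced leader SL2 RNA. The third-ranked member (chrI:4171937-4172526), named by position for egg-5, a pseudophosphatase gene of the egg-to-embryo transition, spanned the SL2 RNA gene sls-2.4. Its signal was 434 in replicate 1 and 179 in replicate 2. A second summit in the same interval ranked 169. The H41C03.3 peak (chrII:5844591-5845181) spanned sls-2.1 (chrII:5844865-5844974), and the sequence printed for it above ends at the base before that gene. It had a signal of 382 in replicate 1 and 128 in replicate 2, and a second summit there ranked 1194. A weaker member at W06D4.3 (rank 3507) spanned sls-2.7. Over the genome, 7 of 18 annotated sls-2 genes had an optimal peak and 3 of these had a member. The 12 annotated sls-1 genes, which encode SL1 RNA in a repeated array, had 0 peaks in the optimal list, and how reads of repeated copies were placed is not stated.

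The same GACGCA and ACGCAG and CGTCTC recurred near the summits of the members at large. They had come up in earlier work on these data and overlap one another. GACGCA or its reverse complement lay within 50 bp of 189 summits, or 17.3% (15.1 to 19.7), against 2.15% of 100671 tiles of 101 bp from the same one-strand windows. ACGCAG was at 16.1%, against 1.95% of tiles. CGTCTC was at 18.5%, against 3.14%. At least 1 of the 3 was at 314 summits (28.8%), against 5.70% of tiles. The summits had a median GC content of 43.6%, against 34.7% for the tiles, and the part of base composition in these shares was not tested. For contrast, the AT-rich TATAAA was at 6.15% of summits, against 12.7% of tiles. The tRNA gene word GTTCGANNC was at 0.917%, against 0.641%.

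The words were not restricted to central one-strand promoters, being at 20.7%, 23.3% and 25% of arm peaks and at 16.9%, 14.9% and 13.9% of both-strand peaks in the same order. Their share followed signal within the members. Over the same 4 parts by rank, GACGCA was at 26.7% of the highest, then 16.5%, 14.7% and 11.4%, and their median GC content was 46.5%, 44.6%, 41.6% and 40.6%. Members with GACGCA had a median signal of 106, against 81.3 without it. Of its 205 matches 133 (64.9%) lay within 25 bp of the summit. For CGTCTC matches the share was lower, at 56.4%. Matches were sought only within 50 bp of the summit, so a large share within 25 bp arises by construction. Whether the words gather at the summit beyond that was not tested.

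Read along the gene, CGTCTC lay on the gene's strand 135 times and on the opposite strand 83 times, and GACGCA 80 and 125 times. These are the directions of the run CTGCGTCTC, which joins the 3 words and was put together after their values were seen. That run was at 109 of 1090 summits, against 0.473% of tiles, 15.4% of arm peaks and 6.68% of both-strand peaks. It lay on the gene's strand 65 times, as at sec-61.G, and on the opposite strand 45 times. A match is a description of letters and names no bound factor.

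Below the optimal list the same kind of place went on being called. The pooled relaxed list held 4530 peaks of the same class, 3440 of them outside the optimal list, with a median signal of 17.7, a highest signal of 45.1 and a median position of -234 bp. With those included, 3193 central genes (33.3%) had a one-strand promoter peak. The 10.7% of genes with a member therefore depends on where the authors ended the optimal list.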

How the data were processed

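The sources were peak lists from ChIP-seq of eGFP-MEP-1 in whole L1 larvae, 2 biological replicates of 1 group. Per the deposited file lists, relaxed lists were made for each replicate and for the pool of both as input to an irreproducible discovery rate step, which gave the optimal list. The aligner, the threshold and the peak caller with its version were not stated in these sources. The authors used a control in calling, per the deposited file lists, and it was not analysed here. Each row holds the authors' signal value per peak, used for ranks within 1 list, the authors' −log10 q value as deposited, which reached its ceiling in 59.0% of members and was not used to rank, and a summit offset. The optimal list was checked to be the 4904 highest-signal rows of the pooled list. Depth is unknown, as no read counts are given. The ce10 lists were not used here. In 2 optimal peaks the summit fell 1 base past the end, and 0 of them were members.

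Ensembl release 115 (WBcel235) gave 19973 protein-coding genes with 29314 transcript 5' ends, and RefSeq's assembly of that build gave the sequence. Coordinates count from 1. A replicate's peak was matched when it overlapped by at least 1 bp, taking the highest signal, so 2 summits in 1 interval share a replicate peak; 6 members share an interval with another peak. Tandem gaps run between annotated gene ends, with overlap set to 0 and nested genes skipped. Shares have exact Clopper-Pearson and densities exact Poisson 95% intervals. Words were sought within 50 bp of summits on both strands and in tiles of 101 bp over the same windows.

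The members, gene lists, words and tests were chosen with earlier results of these data known. The 26 gene lists were defined by symbol. Names that matched a list's pattern but not its function (cdc-48 and cdc-42 genes, act-5, spr genes and non-chemoreceptor sr names) were taken out after values were seen. Named genes are the 15 highest members, the 2 highest of each chromosome, up to 3 genes with and 2 without a member in each list, the 5 highest with a tandem gene on each side, those whose replicate ranks differed most or were highest in both, those at each bound, known MEP-1 partners, and the median and lowest. Genes without a member are named for some lists only. Aside from this rule, the genes with 3 or more members and those at spliced leader genes were chosen after their values were seen. Alternatives were each replicate alone, the higher-signal 50% of the list, other windows, 5' ends, central bounds, tandem distances, overlaps and word windows, and, added after the data were seen, leaving out peaks near small RNA genes. The scripts were tested on simulated data. Python 3.11.15, numpy 2.4.6, pandas 2.3.3, scipy 1.17.1 and matplotlib 3.10.9 were used. Not every gene that the rule selects is described, and the results at one of them are not reported here.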

Additional observations from a re-analysis of the deposited data

How the results depend on the processing

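Of 61 alternative shares and medians, 40 lay within the 95% interval of the value reported and 21 lay outside it. Direction was not scored. The upstream tandem share, below that of all central genes at 500 bp (22.1% against 24.0%), was above it at 1000 bp. The share of members in the highest 25% fell below 25% with the 2000 bp window. Of 8 alternative numbers of peaks, which have no interval, 7 were within 1.5 times the 1090 reported and 1 was not. With 1 replicate alone, cut to its 4904 highest peaks, the members numbered 1085 to 1088, and no share or median left its interval. That cut has the length of the optimal list, so it largely sets the number of members. The share in the tops of both replicates has no value with 1 replicate. The higher-signal 50% of the list left 568 members, with 39.8% followed by a tandem gene, 98.1% in both tops, GACGCA at 22% and 5.86% of central genes bound. A window of 500 bp upstream gave a median position of -171 bp, 36.0% with a downstream tandem gene and 9.89% of genes. A window of 2000 bp gave -372.5 bp, 19.2% upstream and 29.3% downstream tandem, 22.9% in the highest 25%, 73.9% in both tops and 11.8% of genes. Outermost 5' ends alone gave 9.64% of genes. A tandem distance of 200 bp gave 8.44% upstream and 23.6% downstream, against 14.6% and 14.5% of all central genes, and 1000 bp gave 35.0% and 39.5%, against 34.2% and 34.1%. A reciprocal overlap of 50% lowered the share in both tops to 58.2%. GACGCA was at 23.5% within 100 bp and 11.1% within 25 bp. A wider or narrower window sets the median position and the share of genes, a tandem distance the share of tandem genes, an overlap the share matched and a word window the share with the word, by construction; for the other values that moved, the cause was not tested. No paired analysis was possible because there is 1 group. Depth is unknown, so it cannot be said which unbound genes were within reach of the assay.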
